A study of Mus musculus with 119 samples.

Results

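The genes described here are 9 of the NRF2 antioxidant system, taken by name from the 18098 genes of the RNA-seq table. They are the transcription factor Nfe2l2, its repressor Keap1, and the target genes Hmox1, Nqo1, Gclm, Gclc, Srxn1, Txnrd1 and Slc7a11. They were measured in 119 libraries of mouse bone marrow-derived macrophages, grown from bone marrow of C57BL/6(NIMR) mice in medium conditioned by L cells. The medium of all groups also held 2-mercaptoethanol, a thiol. The libraries form 25 groups by genotype, inhibitor and time of LPS at 100 ng/ml, a bacterial ligand of the receptor TLR4. WT cells gave 6 libraries each without LPS (0 h) and at 0.5 and 1 h, and 4 at 2 h. Map3k8[D270A] cells, whose TPL-2 kinase is catalytically inactive, gave 6 libraries at each of these 4 times. Elk1-/-Elk4-/- cells, which lack 2 ternary complex factors, partners of serum response factor, gave 4 at each time. Nfkb1[SS/AA] cells, in which p105 lacks the serines that IKK phosphorylates and does not release TPL-2 on stimulation, gave 6 libraries each at 0, 0.5 and 1 h. WT cells given the MKK1/2 inhibitor PD0325901 (PD) at 0.1 µM for 10 min before LPS gave 6 libraries each at 0.5 and 1 h. Cells given PD alone for 10, 40 or 70 min gave 3 each. WT cells given the RSK inhibitor RSKi47 at 2 µM for 10 min gave 4 libraries each at 0, 1 and 2 h and 3 at 0.5 h. Cells given the solvent DMSO for 10 min without LPS gave 3. No libraries of DMSO-treated cells with LPS were among those analysed.

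NRF2, the product of Nfe2l2, is a basic leucine zipper factor that pairs with small MAF proteins on antioxidant response elements. KEAP1 presents it to a CUL3 ubiquitin ligase for degradation, and oxidants or electrophiles that modify cysteines of KEAP1 let newly made NRF2 escape. Much of this control acts on protein and is not seen in mRNA. Its target genes make and use glutathione, recycle thioredoxin and peroxiredoxins, and break down haem and quinones, and macrophages draw on them while they produce oxidants in response to bacterial products. TPL-2 acts in this response as the kinase that activates MKK1/2, the activators of ERK1/2, and the RSK kinases and the ternary complex factors ELK1 and ELK4 are substrates of ERK1/2.

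The deposited values are normalized and on a log2 scale, and each value below is such a level or a difference of such levels in log2 units. The sources used here do not name the transformation, so whether a difference of 1 is exactly 2-fold in counts is not known. The depth of each library is unknown too. Groups were compared with limma over all genes that passed a filter on low values, all 9 genes among them, and a gene was called changed at a Benjamini-Hochberg adjusted p below 0.05. The labels do not say that replicates came from separate mice, so p-values measure the spread between these libraries. In bulk RNA, fewer cells of a type and less RNA per cell cannot be told apart. The labels place Map3k8[D270A] and WT in one experiment and each other mutant or inhibitor in another of its own, so its difference from WT and a difference between experiments cannot be told apart. All 6 macrophage markers were high in every group, the lowest of them, Mertk, with a median at the 84.57th percentile of genes. In Elk1-/-Elk4-/- libraries Elk1 stood at 6.17 to 6.59 against 9.04 to 9.49 in WT, and Elk4 at 5.51 to 5.88 against 7.57 to 8.49. Point mutations such as D270A and SS/AA are not checked by the amount of mRNA. Nfkb1[SS/AA] replicates 4 to 6 and RSKi47 replicate 4 lay apart from the other replicates for several of the 9 genes, and the main results that rest on them are given with and without them.

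Over the 25 groups, Slc7a11, the cystine transporter subunit xCT whose import of cystine feeds glutathione synthesis, spanned the widest range, with group means from 5.74 to 10.53. Txnrd1, the cytosolic thioredoxin reductase, followed with 11.80 to 14.12. The other 7 genes spanned between 0.97 (Gclc) and 1.23 (Gclm) between their lowest and highest group mean. The plot of means by time shows these ranges, with Slc7a11 and Txnrd1 climbing after 0.5 h of LPS in each genotype or inhibitor series sampled.

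**Figure D1:**
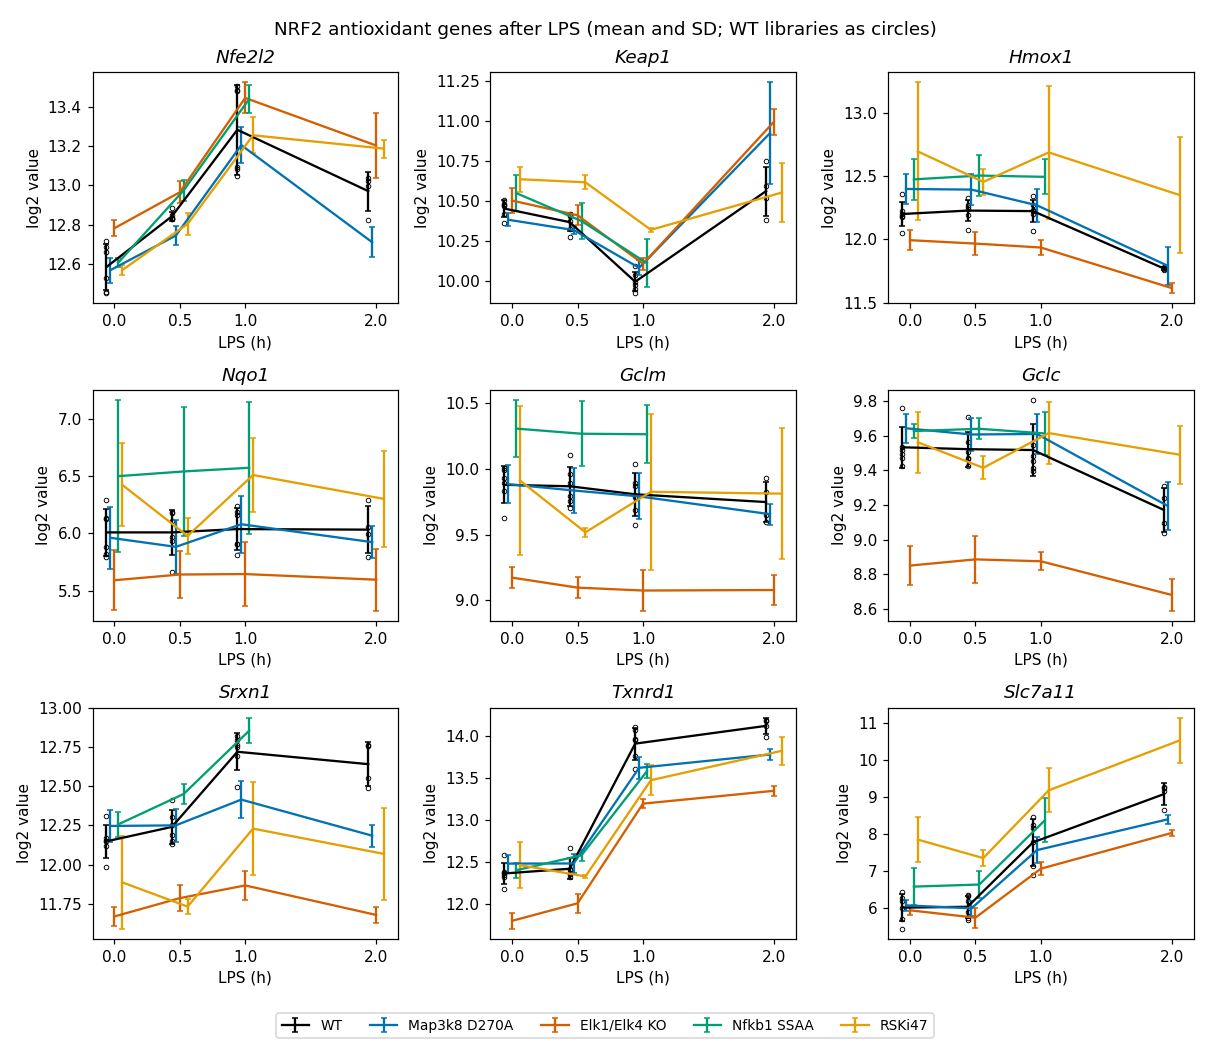
Mean log2 level (vertical axis, log2 units; error bars, SD) of the 9 NRF2 system genes against hours of LPS (horizontal axis) in WT, Map3k8[D270A], Elk1-/-Elk4-/-, Nfkb1[SS/AA] and RSKi47-treated cells, with single WT libraries as open circles. The RSKi47 group at 0.5 h lacks replicate 4. Slc7a11 and Txnrd1 climb after 0.5 h in every series, and Slc7a11 is highest in the RSKi47 series throughout.

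The first comparison asked how the 9 genes moved in WT cells after LPS. At 1 h, 4 rose (Nfe2l2, Srxn1, Txnrd1 and Slc7a11) and Keap1 fell, and at 2 h the same 4 genes stood higher, while Hmox1 and Gclc were lower and Keap1 was not called. At 0.5 h 1 of 9 was called, Nfe2l2, where 11.6% of all tested genes were called in either direction. At 0.5 h 7.82% of genes were higher and 3.81% lower. At 1 h 46.8% of all tested genes were called (23.8% higher, 23% lower), and at 2 h 71.5% (34.7% higher, 36.8% lower). The 5 of 9 and 6 of 9 called members are close to these rates. With a difference of at least 1 as a second condition, only Txnrd1 and Slc7a11 of the 9 passed at 1 and at 2 h, where 3.2% and 7.72% of genes passed upward. Without LPS, Slc7a11 stood at 6.28, 6.42, 6.19, 5.71, 5.45 and 6.00 in WT replicates 4 to 9. At 1 h it stood at 8.46, 8.24, 8.16, 7.14, 6.89 and 7.77, and at 2 h at 9.28, 9.17, 9.24 and 8.64 in replicates 4 to 7. Every 1 h library was above every 0 h library, and every 2 h library above every 1 h library. At each time replicates 4 to 6 were above the libraries of replicates 7 to 9. The rise of Slc7a11 was 1.77 (SE 0.18, adjusted p = 7.11e-13) at 1 h and 3.07 (adjusted p = 1.64e-20) at 2 h. The 2 h group lacks replicates 8 and 9, of the lower set, so 3.07 also holds that imbalance. At 2 h the rise was 2.93 within replicates 4 to 6, 2.92 within 7 to 9 and 2.91 with replicate numbers as a block. Txnrd1 had values from 12.18 to 12.58 (median 12.36) without LPS, from 13.60 to 14.10 (median 13.95) at 1 h, and 14.19, 14.11, 14.17 and 13.99 at 2 h. Its rise of 1.54 (SE 0.07, adjusted p = 1.93e-27) at 1 h had reached most of the 1.75 (adjusted p = 3.98e-28) seen at 2 h, whereas that of Slc7a11 went on. Srxn1 encodes sulfiredoxin, the enzyme that reduces overoxidized peroxiredoxins. It ranged from 11.99 to 12.31 (median 12.15) without LPS and from 12.50 to 12.82 (median 12.76) at 1 h, and stood at 12.76, 12.76, 12.49 and 12.55 at 2 h. The rise of Srxn1 was smaller, 0.57 (SE 0.06, adjusted p = 1.32e-12) at 1 h and 0.49 (SE 0.06, adjusted p = 1.33e-09) at 2 h, without overlap of the groups at either time.

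The regulators moved apart at 1 h. Nfe2l2 stood at 12.72, 12.69, 12.66, 12.46, 12.53 and 12.45 in WT replicates 4 to 9 without LPS, and at 13.50, 13.49, 13.48, 13.10, 13.05 and 13.09 at 1 h. Replicates 4 to 6 and 7 to 9 formed separate levels of Nfe2l2 at both times, and all 6 rose. Nfe2l2 was 0.26 higher at 0.5 h (SE 0.06, adjusted p = 0.00208), 0.70 at 1 h (SE 0.06, adjusted p = 1.2e-14) and 0.39 at 2 h (SE 0.07, adjusted p = 1.77e-06). With replicate numbers as a block the 2 h value was 0.33. Keap1 had values from 10.36 to 10.50 (median 10.47) without LPS and from 9.93 to 10.09 (median 9.98) at 1 h, and at 2 h it stood at 10.59, 10.75, 10.52 and 10.38. It fell by 0.46 at 1 h (SE 0.07, adjusted p = 6.65e-08) and at 2 h differed from 0 h by 0.11, which was not called. Hmox1 encodes haem oxygenase 1, which breaks haem down to biliverdin, iron and carbon monoxide. It ranged from 12.05 to 12.36 (median 12.20) at 0 h, stood at 11.76, 11.77, 11.78 and 11.77 at 2 h, and so fell by 0.43 (SE 0.07, adjusted p = 6.77e-08). Gclc, the catalytic subunit of glutamate-cysteine ligase, ranged from 9.42 to 9.76 (median 9.51) at 0 h, stood at 9.24, 9.09, 9.04 and 9.31 at 2 h, and fell by 0.36 (SE 0.07, adjusted p = 1.63e-05). Gclm, the modifier subunit of the same enzyme, and Nqo1, a quinone reductase, were not called at any of the 3 times in WT cells, though with replicate numbers, which pair the WT libraries, as a block Gclm at 2 h was called at -0.17. Groups of every called gene were separate between the called time and 0 h. Within replicates 4 to 6 alone the 0.5 h rise of Nfe2l2 was 0.16 and not called. Within replicates 7 to 9, with a single library at 2 h, the fall of Gclc was -0.24 and not called.

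The promoters of Srxn1, Txnrd1 and Slc7a11, the 3 target genes that rose in WT cells, are shown so that the short motifs in them can be read. They are RefSeq promoters on GRCm38.p6, each cut to the 220 bases from 250 to 31 bases before the start of an annotated transcript and printed 5′ to 3′ on the gene's strand. Entries were found for 7 of the 9 genes (9 promoters, 3 of them of Txnrd1), and not for Hmox1 and Gclc. Capitals mark matches on either strand to a core antioxidant response element (TGACNNNGC), to the AP-1 motif TGACTCA, or to TGATGNAA, a letter pattern of CEBP-ATF composite elements. The 3 patterns were chosen with the expression values known, and a match is a description of letters only.
Srxn1, chr2:152105274-152105493, plus strand: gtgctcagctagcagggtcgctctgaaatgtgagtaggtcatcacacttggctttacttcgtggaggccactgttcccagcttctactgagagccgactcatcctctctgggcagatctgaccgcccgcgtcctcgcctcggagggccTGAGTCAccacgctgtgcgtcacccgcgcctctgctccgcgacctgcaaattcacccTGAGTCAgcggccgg
Txnrd1 second promoter, chr10:82858956-82859175, plus strand: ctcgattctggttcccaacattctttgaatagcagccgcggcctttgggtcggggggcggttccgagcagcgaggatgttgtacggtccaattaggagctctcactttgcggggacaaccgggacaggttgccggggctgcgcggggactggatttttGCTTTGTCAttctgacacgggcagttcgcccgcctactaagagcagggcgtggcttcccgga
Slc7a11, chr3:50443644-50443863, minus strand: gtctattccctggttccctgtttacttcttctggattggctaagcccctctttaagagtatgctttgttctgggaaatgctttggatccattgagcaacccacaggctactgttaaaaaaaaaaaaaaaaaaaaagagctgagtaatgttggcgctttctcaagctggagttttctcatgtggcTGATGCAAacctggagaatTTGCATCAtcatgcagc
The Srxn1 window held the AP-1 motif in 2 places, read on the opposite strand as TGAGTCA, at 102 to 96 and at 45 to 39 bases before the start. The second Txnrd1 promoter held 1 antioxidant response core on the opposite strand at 92 to 84, and lies in an intron of 1 longer annotated transcript and in no exon. The Slc7a11 window held TGATGNAA on the gene's strand at 66 to 59 and on the opposite strand at 47 to 40. Of the other windows, Gclm held the antioxidant response core on the opposite strand at 134 to 126 and Nfe2l2 held it on the gene's strand at 240 to 232. Neither Nqo1, Keap1 nor the first and the third promoters of Txnrd1 held any of the patterns. Among 32851 promoter windows of the same length, 8.7% held the antioxidant response core, 4.01% TGACTCA and 3.05% TGATGNAA. The genes lie on chromosomes 2 (Srxn1, 152105524 to 152111376), 10 (Txnrd1, 82833951 to 82897724) and 3 (Slc7a11, 50364936 to 50499087). The Slc7a11 window lies inside this RefSeq span, which reaches further upstream, and overlaps no transcript of the GENCODE annotation.

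The same question was put to the other series, each against its own cells without LPS. At 1 h, Nfe2l2, Srxn1, Txnrd1 and Slc7a11 were called higher and Keap1 lower in Map3k8[D270A], Elk1-/-Elk4-/-, Nfkb1[SS/AA], PD-treated and RSKi47-treated cells. In these series 41.9%, 33.3%, 44.4%, 43.6% and 29% of all tested genes were called in either direction. The rise of Slc7a11 at 1 h was 1.49 in Map3k8[D270A], 1.13 in Elk1-/-Elk4-/-, 1.79 in Nfkb1[SS/AA], 1.97 with PD and 1.33 with RSKi47. That of Txnrd1 was 1.14, 1.39, 1.18, 1.31 and 1.01 in the same order, and that of Srxn1 was 0.17, 0.20, 0.60, 0.28 and 0.34. The rise of Nfe2l2 varied less, from 0.64 to 0.83, and the fall of Keap1 was 0.30, 0.40, 0.44, 0.50 and 0.32. At 2 h 69.5%, 67.2% and 62.2% of genes were called in Map3k8[D270A], Elk1-/-Elk4-/- and RSKi47-treated cells. There Slc7a11 stood 2.33, 2.09 and 2.68 above 0 h and Txnrd1 1.29, 1.54 and 1.36. Srxn1 at 2 h differed from 0 h by -0.06 in Map3k8[D270A], 0.01 in Elk1-/-Elk4-/- and 0.18 in RSKi47-treated cells, none of which was called. Keap1 at 2 h was above 0 h by 0.54 in Map3k8[D270A] and 0.49 in Elk1-/-Elk4-/- cells, both called. Hmox1 fell at 2 h in these 3 series by 0.61, 0.38 and 0.35, and in Map3k8[D270A] cells Gclc fell by 0.45 and Gclm by 0.23. At 0.5 h no gene of the 9 was called in Map3k8[D270A] (5.08% of all genes) or Elk1-/-Elk4-/- cells (4.96%), with 1 and 2 below an unadjusted p of 0.05. At that time Nfe2l2 rose by 0.37 in Nfkb1[SS/AA] (14.6%), by 0.27 with PD (14.9%) and by 0.24 with RSKi47 (5.1%), and Keap1 fell by 0.18 in Nfkb1[SS/AA] and by 0.24 with PD.

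Map3k8[D270A] cells were compared with WT cells of the same experiment to ask which of the 9 genes depend on TPL-2 kinase activity. At 2 h Srxn1, Txnrd1, Slc7a11 and Nfe2l2 were lower and Keap1 higher in the mutant cells. No gene of the 9 was called at 0 h or 0.5 h (1.44% and 1.37% of all tested genes). At each of these times 1 was below an unadjusted p of 0.05, Hmox1, at 0.20 and 0.17. At 1 h 2 of 9 were called, both lower, where 9.79% of all genes were called (5.14% higher, 4.64% lower). Srxn1 had values from 12.26 to 12.54 (median 12.44) in mutant cells against 12.50 to 12.82 (median 12.76) in WT, a difference of -0.30 (SE 0.06, adjusted p = 0.000133). Txnrd1 differed at 1 h by -0.29 (SE 0.07, adjusted p = 0.00204), and for both genes the groups overlapped. At 2 h 1 of 9 was higher and 4 lower, where 27.7% of all genes were called (14.6% higher, 13.1% lower). Srxn1 had values from 12.12 to 12.30 (median 12.16) in mutant cells and 12.76, 12.76, 12.49 and 12.55 in WT, a difference of -0.46 (SE 0.06, adjusted p = 1.26e-07). Txnrd1 had values from 13.70 to 13.87 (median 13.77) against 14.19, 14.11, 14.17 and 13.99, a difference of -0.34 (SE 0.07, adjusted p = 0.000316). Slc7a11 stood at 8.44, 8.38, 8.34, 8.52, 8.52 and 8.21 in mutant replicates 1 to 6 and at 9.28, 9.17, 9.24 and 8.64 in WT, a difference of -0.68 (SE 0.20, adjusted p = 0.00617). All mutant libraries lay below all WT libraries for these 3 genes, and also for Nfe2l2, which differed by -0.26 (SE 0.07, adjusted p = 0.00293). Keap1 stood at 11.25, 11.16, 11.22, 10.69, 10.57 and 10.65 in mutant cells and at 10.59, 10.75, 10.52 and 10.38 in WT, a difference of 0.36 (SE 0.08, adjusted p = 0.000159). Mutant replicates 1 to 3 were all above WT, and replicates 4 to 6 overlapped it.

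The LPS responses of Map3k8[D270A] and WT cells were compared directly as an interaction. At 1 h (2.02% of all genes called) the rise was smaller in the mutant by 0.40 for Srxn1 (adjusted p = 0.00113) and by 0.40 for Txnrd1 (adjusted p = 0.00733). At 2 h (15.5% called) it was smaller by 0.56 for Srxn1 (adjusted p = 2.8e-06), by 0.46 for Txnrd1 (adjusted p = 0.00062) and by 0.74 for Slc7a11 (adjusted p = 0.0436). For Keap1 it was greater by 0.43 (adjusted p = 0.00141). No gene of the 9 was called for a differing response at 0.5 h, where 0.109% of all genes were. The Slc7a11 call was lost when any of mutant replicates 1 to 5 or WT replicates 4, 6, 8 or 9 was left out, at values between -0.77 and -0.63, and also when all libraries were fitted together. With a block on replicate number within each series, the responses of Hmox1 at 1 h (-0.15) and 2 h (-0.17) and of Nfe2l2 at 2 h (-0.19) were called as well. Slc7a11 at 2 h stayed called with this block, at the smaller value of -0.58. Among WT replicates 4 to 6 and mutant replicates 1 to 3, the 2 h differences were -0.53 for Srxn1, -0.38 for Txnrd1, -0.84 for Slc7a11, -0.31 for Nfe2l2 and 0.59 for Keap1, all called. Among WT replicate 7 at 2 h and mutant replicates 4 to 6 they were -0.32, -0.21, -0.23, -0.11 and 0.25, of which only Keap1 was called. The spread of that single WT library is assumed to be that of the other groups.

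**Figure D2:**
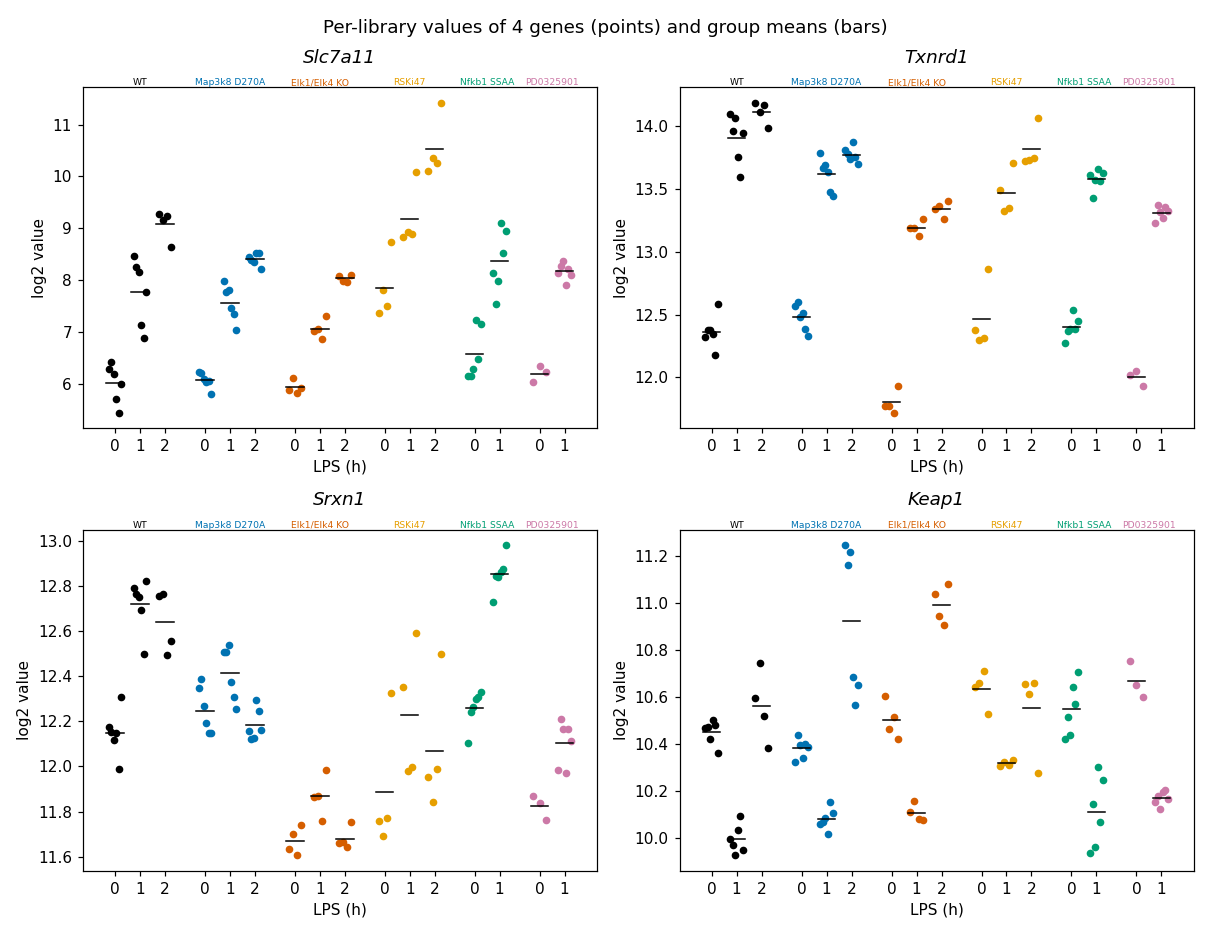
Log2 level (vertical axis, log2 units) of Slc7a11, Txnrd1, Srxn1 and Keap1 in every library (points; bars, group means) by hours of LPS and genotype or inhibitor (horizontal axis), with PD alone for 70 min in the place of 0 h for PD. At 2 h the Map3k8[D270A] libraries of Slc7a11, between 8.21 and 8.52, all lie below the 4 WT libraries, and RSKi47 libraries, from 10.11 upward, all lie above them.

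Elk1-/-Elk4-/- cells differed from WT cells already without LPS. Both subunits of glutamate-cysteine ligase, Srxn1 and Txnrd1 were lower at each of the 4 times, Slc7a11 was lower at 1 and 2 h, and Nfe2l2 was higher at 0, 1 and 2 h. At 0 h 1 of 9 was higher and 6 lower, where 51.8% of all genes were called (27.2% higher, 24.6% lower). At 0.5 h 6 were lower (44.4% called, 22.4% higher and 22% lower), and at 1 h 1 was higher and 7 lower (53.4% called, 27.2% higher and 26.2% lower). At 2 h 2 were higher and 6 lower (50.8% called, 27.7% higher and 23.1% lower). Gclm stood at 9.08, 9.17, 9.17 and 9.28 at 0 h in Elk1-/-Elk4-/- cells and at 9.62 to 10.00 (median 9.91) in WT, a difference of -0.70 (SE 0.09, adjusted p = 4.45e-09). Gclc stood at 8.84, 8.94, 8.69 and 8.93 against 9.42 to 9.76 (median 9.51), a difference of -0.69 (SE 0.07, adjusted p = 5.04e-11). The knockout and WT libraries of both subunits were separate. Srxn1 at 11.63, 11.70, 11.61 and 11.74 differed from WT by -0.48 (SE 0.06, adjusted p = 1.73e-08), and Txnrd1 at 11.77, 11.78, 11.72 and 11.93 by -0.56 (SE 0.07, adjusted p = 1.21e-08). The remaining calls at 0 h were Nqo1 (-0.42, adjusted p = 0.0118), Hmox1 (-0.21, adjusted p = 0.00696) and Nfe2l2 (0.20, adjusted p = 0.0139). The calls of Nqo1 and Hmox1 were lost at the same differences when all libraries were fitted together. With LPS the gap of Srxn1 grew, to -0.85 at 1 h and -0.96 (SE 0.07, adjusted p = 1.77e-16) at 2 h, where the knockout libraries stood at 11.66, 11.66, 11.64 and 11.75. Txnrd1 differed by -0.71 at 1 h and -0.77 (SE 0.08, adjusted p = 3.16e-11) at 2 h. Slc7a11 differed by -0.71 (adjusted p = 0.00187) at 1 h and -1.05 (SE 0.21, adjusted p = 5.11e-05) at 2 h, where it stood at 8.09, 7.98, 7.96 and 8.10, below all WT libraries. Keap1 at 2 h, at 11.04, 10.95, 10.91 and 11.08, was 0.43 above WT.

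The LPS response in Elk1-/-Elk4-/- cells was compared with that in WT as an interaction, and none of the 9 genes was called at 0.5 h (0.0589% of all genes; none of the 9 below an unadjusted p of 0.05). At 1 h it was smaller by 0.37 for Srxn1 (adjusted p = 0.016, 1.35% of all genes called), a call lost without knockout replicate 1, 2 or 3 at -0.38 to -0.36 and in the fit of all libraries. At 2 h (16.9% called) it was smaller by 0.48 for Srxn1 (adjusted p = 0.000182) and by 0.98 for Slc7a11 (adjusted p = 0.0134). For Keap1 it was greater by 0.38 (adjusted p = 0.0118), and this call was lost without knockout replicate 4 (0.33) or WT replicate 7 (0.31). With the block within series Slc7a11 at 1 h (-0.64) and Txnrd1 at 2 h (-0.20) were called as well, and Slc7a11 at 2 h stayed called at -0.82. Calls of Nqo1 were lost without knockout replicate 3 at all 4 times (-0.33 to -0.28) and without knockout replicate 2 at 0.5 and 1 h (-0.35 and -0.34). They were also lost without WT replicate 4 at 0.5 and 2 h (-0.33 and -0.35), and without WT replicate 5 or 8 at 0.5 h (-0.35 and -0.33). Those of Nfe2l2 were lost at 2 h without knockout replicate 3 (0.17), and at 1 h without any of knockout replicates 1 to 3 or WT replicates 7 to 9 (0.12 to 0.17). Set against DMSO-treated WT cells at 0 h, which came from yet another experiment, only Gclc remained called in knockout cells, at -0.40, while Gclm stood at -0.23, Srxn1 at -0.06 and Txnrd1 at -0.18. What share of all genes was called in that comparison was not computed. Neutrophil markers moved with the genotype: the log2 of the summed linear levels of the 7 of 7 genes found was 9.67 to 10.13 in knockout libraries at 0 h and 6.10 to 6.93 in WT. All 7 were higher in the knockout at 0 h without overlap. S100a9 stood at 8.69 to 9.12 against 4.57 to 5.84 in WT, S100a8 at 7.60 to 8.02 against 4.62 to 5.25, Ltf at 7.53 to 8.12 against 3.53 to 4.33, and Camp at 4.13 to 4.43 against 2.05 to 2.34. Mpo stood at 1.51 to 2.23 against 0.70 to 0.73, Elane at 0.17 to 0.63 against -0.15 to -0.08, and Ly6g at -0.13 to 0.40 against -0.24 to -0.17. Mpo, Elane, Ly6g and every lymphoid marker lay below the linear value of 10 used as the filter in all libraries, so their differences are among very low values. The summed lymphoid markers were also higher at 0 h, at 3.49 to 4.00 against 3.14 to 3.29. The summed macrophage markers were lower, at 18.26 to 18.36 against 18.53 to 18.74, and neither sum overlapped WT at any of the 4 times. Their part in the differences of the 9 genes was not tested.

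For the inhibitors the WT libraries without inhibitor were the control at the times with LPS, and the solvent was compared with them first. DMSO-treated cells without LPS had 4 of 9 genes called lower than WT at 0 h and none higher, where 23.6% of all genes were called (12.5% higher, 11.1% lower). Srxn1 stood at 11.71, 11.73 and 11.75 in DMSO-treated cells and differed by -0.42 (SE 0.09, adjusted p = 0.000168), and Txnrd1 at 11.93, 12.00 and 12.00 differed by -0.39 (SE 0.08, adjusted p = 0.000168). Gclm at 9.35, 9.38 and 9.48 differed by -0.47 (SE 0.16, adjusted p = 0.0186) and Gclc at 9.26, 9.23 and 9.25 by -0.29 (SE 0.08, adjusted p = 0.00291). The DMSO and WT libraries did not overlap for any of the 4 genes, and the call of Gclm was lost without DMSO replicate 1 (-0.45) or 2 (-0.46). The summed neutrophil markers were 7.23 to 7.93 in DMSO-treated cells, above the 6.10 to 6.93 of WT without overlap, and their part in these differences was not tested. PD for 10 min against DMSO for 10 min gave no call among the 9 genes, none below an unadjusted p of 0.05, and 0% of all tested genes called. The 95% intervals of the difference were -0.21 to 0.19 for Srxn1 and -0.17 to 0.20 for Txnrd1. The plot of libraries without LPS shows the position of the DMSO libraries beside those of the mutants and RSKi47.

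**Figure D3:**
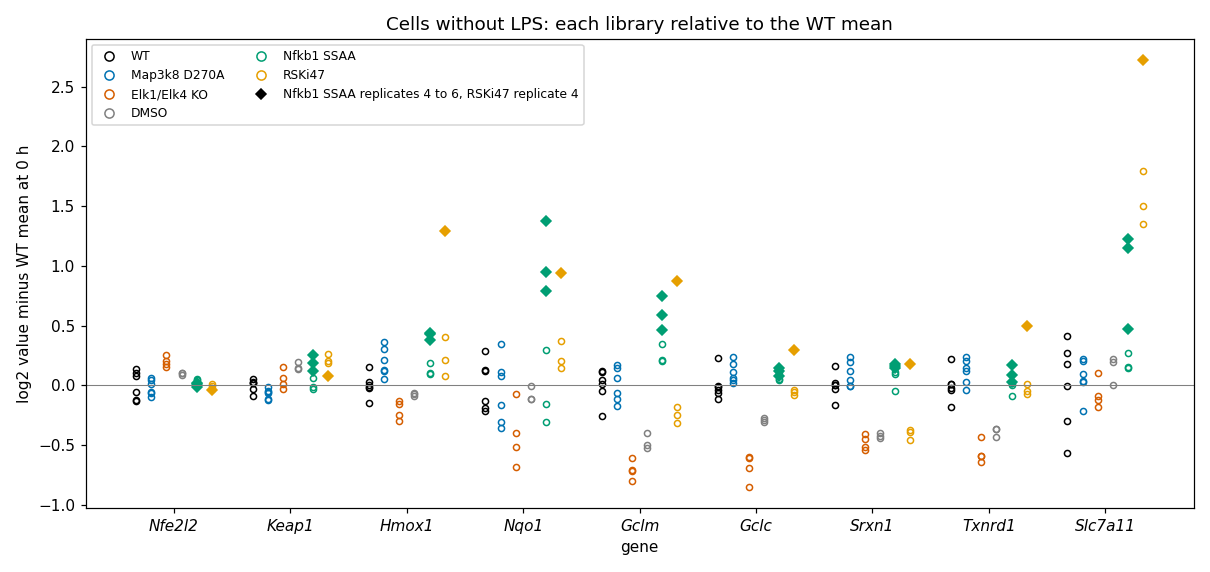
Log2 level of each library without LPS minus the WT mean at 0 h (vertical axis, log2 units) for the 9 genes (horizontal axis) in WT, Map3k8[D270A], Elk1-/-Elk4-/-, DMSO-treated, Nfkb1[SS/AA] and RSKi47-treated cells, with Nfkb1[SS/AA] replicates 4 to 6 and RSKi47 replicate 4 as filled diamonds. DMSO and Elk1-/-Elk4-/- libraries lie below WT for Gclm, Gclc, Srxn1 and Txnrd1, and all 4 RSKi47 libraries of Slc7a11, from 7.36 upward on the plain scale, lie above WT.

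Of the 9 genes, 1 was called lower after longer PD without LPS, Nfe2l2, with no DMSO libraries at those times to set beside it. It stood at 12.66, 12.72 and 12.72 after 10 min, at 12.46, 12.38 and 12.50 after 40 min, and at 12.38, 12.40 and 12.47 after 70 min. The difference from 10 min was -0.26 (SE 0.07, adjusted p = 0.0182) at 40 min, where 3.58% of all genes were called. It was -0.29 (SE 0.07, adjusted p = 0.00349) at 70 min, where 6.09% were called, and the groups did not overlap at either time. These calls were lost without PD replicate 1 (-0.28 and -0.29) or 2 (-0.22 and -0.27), and at 40 min also without replicate 3 (-0.27). With LPS, PD-treated cells had 4 of 9 genes called lower than WT at 0.5 h (29.4% of all genes called, 14.5% higher and 15% lower). At 1 h 1 was higher and 5 lower (35.7% called, 16.4% higher and 19.3% lower). At 1 h Srxn1 had values from 11.97 to 12.21 (median 12.14), a difference of -0.62 (SE 0.07, adjusted p = 1.1e-11). Txnrd1 had values from 13.23 to 13.37 (median 13.32), a difference of -0.59 (SE 0.07, adjusted p = 1.98e-12). PD and WT libraries were separate for both genes. At 0.5 h they differed by -0.36 and -0.33, beside the -0.42 and -0.39 of DMSO-treated cells without LPS. Gclc at -0.21, Gclm at -0.34, Nfe2l2 at -0.12 and Keap1 at 0.17 were the other calls at 1 h. Slc7a11 at 1 h, with values from 7.91 to 8.37 (median 8.17), differed by 0.39 (adjusted p = 0.131) and was not called. No difference between the LPS responses of PD-treated and WT cells was called for the 9 genes at 0.5 h (1.49% of all genes, none of the 9 below an unadjusted p of 0.05) or at 1 h (3.58%, 2 below it). At 1 h the response of Srxn1 differed by -0.29 (95% interval -0.52 to -0.07) and Txnrd1 by -0.23 (-0.43 to -0.02). With the block within series both were called at 1 h (-0.27 and -0.21), as was Hmox1 (-0.14). The calls of Nfe2l2 were lost at 0.5 h without PD replicate 1 or 2 (-0.13 each) or WT replicate 5 (-0.12). At 1 h they were lost without PD replicate 2, 3 or 5 (-0.12 to -0.11) or WT replicate 4, 5 or 6 (-0.08 each). That of Gclm at 1 h was lost without PD replicate 1 or 4 or WT replicate 4 or 5 (-0.33 to -0.30), and that of Keap1 without WT replicate 6 (0.16). The summed neutrophil markers were 6.92 to 7.76 after PD alone for 10 min, 8.14 to 8.47 after 40 min and 8.09 to 8.17 after 70 min. With PD and LPS they were 7.73 to 8.01 at 0.5 h and 7.87 to 8.45 at 1 h, against 6.00 to 6.98 and 6.14 to 7.47 in WT. The sums after 40 and 70 min did not overlap those after 10 min, nor did those with PD and LPS overlap WT. The summed lymphoid markers were 3.20 to 3.24 after PD for 10 min, and 3.35 to 3.49 and 3.39 to 3.48 after 40 and 70 min, without overlap. Each lymphoid marker lay below the filter's linear value of 10 in all libraries. The part of these markers in the results was not tested.

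RSKi47-treated cells stood apart from WT for Slc7a11, which was higher at every time, while Srxn1 was lower at every time and Txnrd1 lower at 1 and 2 h. Without LPS, Slc7a11 stood at 7.36, 7.80, 7.51 and 8.73 in RSKi47 replicates 1 to 4. After LPS it stood at 7.15, 7.56 and 7.34 at 0.5 h, 8.84, 8.93, 8.89 and 10.08 at 1 h, and 10.11, 10.35, 10.25 and 11.42 at 2 h. Every RSKi47 library was above every WT library of the same time, and replicate 4 was above the others at each of its 3 times. The differences of Slc7a11 were 1.84 (SE 0.23, adjusted p = 5.74e-11) at 0 h and 1.32 (SE 0.25, adjusted p = 7.83e-06) at 0.5 h. They were 1.41 (SE 0.23, adjusted p = 1.83e-07) at 1 h and 1.45 (SE 0.25, adjusted p = 7.16e-07) at 2 h. A difference of at least 1 with a call was reached upward by 0.994%, 0.911%, 0.977% and 0.894% of all genes at these times. Without replicate 4, which the 0.5 h group lacks, the differences of Slc7a11 were 1.55, 1.32, 1.11 and 1.15, all called, and against DMSO-treated cells at 0 h the difference was 1.70 (1.41 without replicate 4) and called. Of the 9 genes, 3 were higher and 1 lower at 0 h (53% of all genes called, 26.8% higher and 26.3% lower), and 2 and 1 at 0.5 h (48.2%, 23.7% and 24.5%). At 1 h 4 were higher and 2 lower (52.8%, 26.5% and 26.3%), as at 2 h (52.1%, 27.5% and 24.6%). Upward and downward counts together are near or under the rates over all genes at 0 and 0.5 h and somewhat above them at 1 and 2 h. Srxn1 differed by -0.26, -0.51, -0.49 and -0.57 at the 4 times, and by -0.41, -0.51, -0.61 and -0.71 without replicate 4, all called. Against DMSO-treated cells at 0 h it was 0.16 higher, or 0.01 without replicate 4, and not called. Against the same DMSO libraries Gclm (0.51), Gclc (0.32) and Txnrd1 (0.48) were called higher at 0 h, which they were not against WT. Without replicate 4 these were 0.23, 0.23 and 0.35, and the call of Gclm was lost. No share over all genes was computed for the comparison with DMSO-treated cells. Hmox1 at 0 h stood at 12.28, 12.60, 12.41 and 13.49. Its differences of 0.50 at 0 h, 0.46 at 1 h and 0.58 at 2 h were 0.23, 0.21 and 0.36 without replicate 4, all still called. Keap1 was higher at 0, 0.5 and 1 h by 0.18, 0.25 and 0.32, with the call at 0 h lost without RSKi47 replicate 2 (0.18) or 3 (0.16). Against DMSO-treated cells at 0 h Keap1 differed by 0.02 and was not called. Nqo1 was called at 1 h alone (0.47), and this was lost without RSKi47 replicate 2, 3 or 4 (0.49, 0.52 and 0.32) or WT replicate 7, 8 or 9 (0.43 to 0.45). Gclm, at 9.57, 9.63, 9.70 and 10.76 at 0 h, differed from WT by 0.03 with replicate 4 and by -0.25, a call, without it. At 0.5 h, where the group lacks replicate 4, it differed by -0.35, and at 1 h by 0.02 with replicate 4 and by -0.28 without it. When replicate 4 was left out of the whole fit, these 0.5 and 1 h values were called, as was Hmox1 at 0.5 h (0.23). At 2 h Gclc was 0.32 and Nfe2l2 0.22 above WT, and Txnrd1 differed by -0.43 at 1 h and -0.30 at 2 h (-0.51 and -0.38 without replicate 4).

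The LPS response with RSKi47 differed from that of WT at 1 h for Txnrd1 (-0.53, adjusted p = 0.00017, 5.54% of all genes called). At 2 h (21% called) it differed for Txnrd1 (-0.40, adjusted p = 0.00436), Nfe2l2 (0.23, adjusted p = 0.0307), Gclc (0.29, adjusted p = 0.0318) and Srxn1 (-0.31, adjusted p = 0.0487). It was not called for any of the 9 genes at 0.5 h (0.0251% of all genes, 1 of the 9 below an unadjusted p of 0.05), nor for Slc7a11 at any time. With the block within series Slc7a11 (-0.43) and Srxn1 (-0.23) were called at 1 h as well. Both Txnrd1 calls held whichever replicate was left out. The Gclc call was lost without RSKi47 replicate 1 or 3 or WT replicate 5, 6 or 9 (0.24 to 0.28). That of Nfe2l2 was lost without RSKi47 replicate 2, 3 or 4 or WT replicate 6 or 7 (0.21 to 0.24), and that of Srxn1 without RSKi47 replicate 1, 2 or 3 or WT replicate 4, 5 or 8 (-0.32 to -0.27). Fibroblast markers moved with RSKi47: the log2 of the summed linear levels of the 5 of 5 genes found was 5.38 to 9.42 in RSKi47 libraries at 0 h and 4.05 to 4.43 in WT. Col1a1 stood at 3.93 to 9.03 against 2.25 to 2.78 in WT, Col1a2 at 4.46 to 7.28 against 2.92 to 3.43, and Col3a1 at 1.63 to 1.79 against 1.34 to 1.45. Pdgfra at -0.64 to -0.47 and Dcn at -0.89 to -0.82 overlapped the -0.65 to -0.54 and -0.90 to -0.84 of WT. Col3a1, Pdgfra and Dcn lay below the filter's linear value of 10 in all libraries. The summed neutrophil markers, at 7.07 to 7.52 at 0 h and 7.51 to 8.12 at 2 h, were above the 6.10 to 6.93 and 6.14 to 7.46 of WT, while at 0.5 h (6.73 to 7.27) and 1 h (7.27 to 7.99) they overlapped the 6.00 to 6.98 and 6.14 to 7.47 of WT. The summed fibroblast markers were separate from WT at these times too, at 5.06 to 5.81 at 0.5 h, 5.08 to 7.32 at 1 h and 5.34 to 6.50 at 2 h against 3.97 to 4.53, 4.05 to 4.93 and 4.07 to 4.49. The summed macrophage markers at 1 h, 18.77 to 18.90, were above the 18.58 to 18.75 of WT. The part of these markers in the differences was not tested.

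Nfkb1[SS/AA] cells had Hmox1, Nqo1, Gclm and Slc7a11 above WT at 0, 0.5 and 1 h, and Txnrd1 below WT at 1 h. At 0 h 4 of 9 were higher (32% of all genes called, 16.9% higher and 15.1% lower), and at 0.5 h 6 (32.3%, 16.7% and 15.6%). At 1 h 5 were higher and 1 lower (42.5%, 20.5% and 21.9%). Nqo1 stood at 5.70, 5.85, 6.31, 7.39, 6.80 and 6.95 in mutant replicates 1 to 6 at 0 h and at 5.79 to 6.29 (median 6.00) in WT. Slc7a11 stood at 6.16, 6.16, 6.28, 7.23, 6.49 and 7.16 at 0 h and at 8.14, 7.54, 7.98, 9.10, 8.53 and 8.95 at 1 h. For both genes mutant replicates 4 to 6 were above replicates 1 to 3, which overlapped WT. Over all 6 replicates the differences at 0, 0.5 and 1 h were 0.49, 0.53 and 0.53 for Nqo1 and 0.57, 0.60 and 0.59 for Slc7a11. They were 0.43, 0.40 and 0.46 for Gclm, and 0.27, 0.28 and 0.27 for Hmox1. With replicates 1 to 3 alone they were -0.06, 0.05 and 0.06 for Nqo1, 0.19, 0.34 and 0.11 for Slc7a11, 0.25, 0.20 and 0.27 for Gclm, and 0.13, 0.14 and 0.16 for Hmox1, none called. With replicates 4 to 6 alone they were 1.04, 1.02 and 1.01 for Nqo1, 0.95, 0.86 and 1.08 for Slc7a11, 0.60, 0.60 and 0.64 for Gclm, and 0.42, 0.42 and 0.39 for Hmox1. Over the 3 times 16 of 27 values were called with all replicates, 2 with replicates 1 to 3 and 16 with replicates 4 to 6. Of all genes at 0 h, 20.1% were called with replicates 1 to 3 and 30.1% with replicates 4 to 6, beside 32% with all. These shares were not computed for the 2 sets at 0.5 and 1 h. Single replicates, left out at all their times, decided the count too: it was 9 without WT replicate 7 or 8, and 6, 10 and 7 without mutant replicate 4, 5 and 6. The calls of Hmox1 were lost at each time without mutant replicate 4, 5 or 6 (0.24 to 0.26) or WT replicate 7 or 8 (0.24 to 0.28), and also without WT replicate 4, 5 or 6 at 0 h and WT replicate 6 at 0.5 h (0.27 to 0.28). Those of Slc7a11 were lost at 0 and 1 h without mutant replicate 4 or 6 or WT replicate 7 or 8 (0.42 to 0.51), and at 0.5 h without mutant replicate 6 (0.52). Those of Nqo1 were lost at 0 h without mutant replicate 4, 5 or 6 or WT replicate 7, 8 or 9 (0.31 to 0.46). They were lost at 0.5 h without mutant replicate 4, 5 or 6 or WT replicate 7 (0.38 to 0.46), and at 1 h without mutant replicate 4 (0.38). That of Gclm at 0.5 h was lost without mutant replicate 4 (0.32). Srxn1 at 0.5 h was 0.21 higher, a call kept with replicates 4 to 6 alone (0.25) and lost with replicates 1 to 3 alone (0.17). Nfe2l2 was 0.13 higher at 0.5 h and 0.16 at 1 h, calls that were lost without mutant replicate 1, 4, 5 or 6 (0.11 to 0.13) at 0.5 h and WT replicate 8 or 9 (0.11 and 0.12) at 1 h. The 0.5 h call was also lost with either set of 3 mutant replicates (0.13 and 0.14), and that at 1 h with replicates 4 to 6 alone (0.13). Txnrd1 differed at 1 h by -0.33 (SE 0.07, adjusted p = 2.32e-05). Its LPS response there was smaller than in WT by 0.36 (adjusted p = 0.00524, 6.07% of all genes called), with the call kept whichever replicate was left out. At 0.5 h no differing response was called among the 9 genes (0.309% of all genes, none of the 9 below an unadjusted p of 0.05). Against DMSO-treated cells at 0 h, Gclm (0.90), Gclc (0.38), Srxn1 (0.53) and Txnrd1 (0.42) were called higher in mutant cells, and Hmox1, Nqo1 and Slc7a11 stood at 0.35, 0.57 and 0.43 and were not called. With mutant replicates 1 to 3 alone these 3 were 0.21, 0.02 and 0.05, none called, and with replicates 4 to 6 alone 0.49, 1.11 and 0.81, all called. The calls of Gclm, Gclc, Srxn1 and Txnrd1 against DMSO-treated cells held with either set, Gclm at 0.73 and 1.07. The share of all genes called against DMSO-treated cells was not computed, so these calls have no background rate beside them. The summed macrophage markers in Nfkb1[SS/AA] cells overlapped WT at 0 h and were 18.76 to 19.12 at 1 h, above the 18.58 to 18.75 of WT. The summed neutrophil markers overlapped WT at all 3 times, at 7.03 to 8.05 against 6.14 to 7.47 at 1 h. The part of these markers in the results was not tested.

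Side by side, Srxn1 and Txnrd1 at 1 h of LPS were called below WT in every series except Nfkb1[SS/AA] for Srxn1. Slc7a11 went below WT in Elk1-/-Elk4-/- cells and above it with RSKi47, and its call above WT in Nfkb1[SS/AA] cells was lost with mutant replicates 1 to 3 alone (0.11). For Srxn1 at 1 h the differences from WT were -0.30 in Map3k8[D270A], -0.85 in Elk1-/-Elk4-/-, -0.62 with PD and -0.49 with RSKi47. For Txnrd1 they were -0.29, -0.71, -0.59 and -0.43, and -0.33 in Nfkb1[SS/AA]. These comparisons share the WT libraries, so their common sign is not independent from one series to the next. Gaps were also there without LPS, at -0.48 and -0.56 in Elk1-/-Elk4-/- cells, and at -0.26 for Srxn1 with RSKi47. DMSO-treated cells too were below WT for both genes, and RSKi47-treated cells were not below those at 0 h. Without the block, the 1 h LPS response was not called different for Txnrd1 in Elk1-/-Elk4-/- cells (-0.15). Nor was it for Srxn1 (-0.29) or Txnrd1 (-0.23) with PD, or Srxn1 with RSKi47 (-0.23). In the order of group means of Srxn1, Nfkb1[SS/AA] at 1 h (12.85 ± 0.08, SD, n = 6), WT at 1 h (12.72 ± 0.12, SD, n = 6) and WT at 2 h (12.64 ± 0.14, SD, n = 4) were highest. Elk1-/-Elk4-/- at 0 h (11.67 ± 0.06, SD, n = 4) was lowest, and each group in that order overlapped the next. For Txnrd1, WT at 2 h (14.12 ± 0.09, SD, n = 4) was highest, and all groups with 1 or 2 h of LPS were separate from all others. The lowest of them was Elk1-/-Elk4-/- at 1 h (13.19 ± 0.05, SD, n = 4), and the next below it was Nfkb1[SS/AA] at 0.5 h (12.58 ± 0.07, SD, n = 6). For Slc7a11, RSKi47 at 2 h (10.53 ± 0.60, SD, n = 4) was separate from RSKi47 at 1 h (9.18 ± 0.60, SD, n = 4), which overlapped WT at 2 h (9.08 ± 0.30, SD, n = 4). WT at 2 h was separate from Map3k8[D270A] at 2 h (8.40 ± 0.12, SD, n = 6). From there down to Elk1-/-Elk4-/- at 0.5 h (5.74 ± 0.27, SD, n = 4) each group overlapped the next. Keap1 was highest in Elk1-/-Elk4-/- (10.99 ± 0.08, SD, n = 4) and Map3k8[D270A] cells (10.92 ± 0.32, SD, n = 6) at 2 h. Its 5 lowest groups were 1 h groups, with WT (9.99 ± 0.06, SD, n = 6) last.

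**Figure D4:**
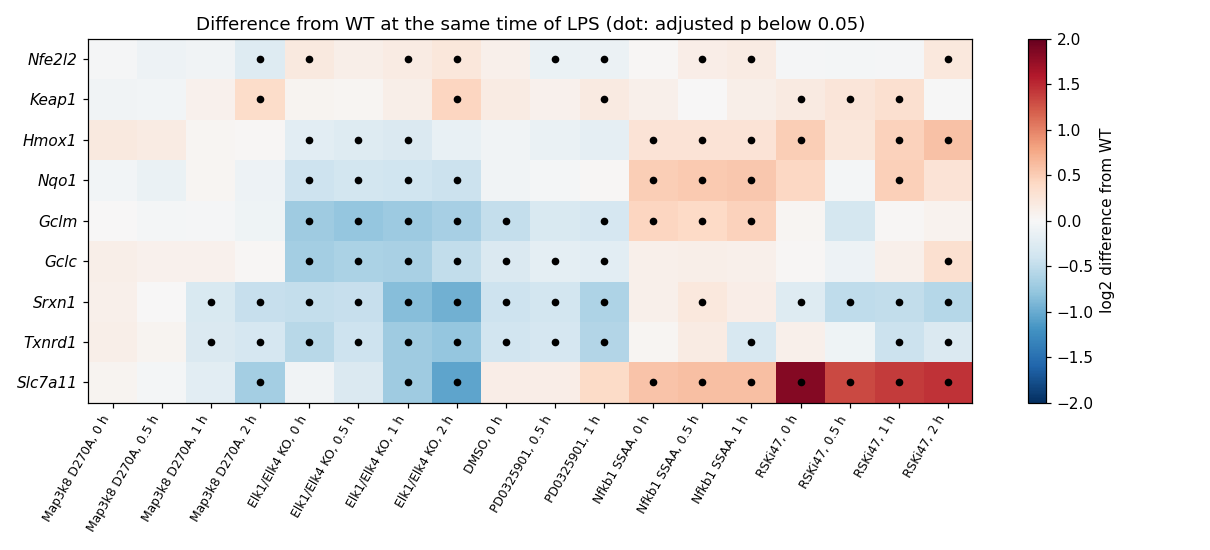
Difference in log2 level from WT cells at the same time (colour, from -2 in blue to 2 in red) of the 9 genes (rows) by series and hours of LPS (columns), with a dot where limma's adjusted p was below 0.05. Srxn1 and Txnrd1 are below WT at 1 h in Map3k8[D270A], Elk1-/-Elk4-/-, PD-treated and RSKi47-treated cells, and Slc7a11 with RSKi47 is the one gene above WT by more than 1.

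Beyond the 9 genes, 7 lists of the wider system held 63 genes, 62 of them tested: Nrf2 regulators, glutathione, thioredoxin, NADPH supply, haem and iron, detoxification, and superoxide. In WT cells LPS raised 5 and lowered 2 of these 62 at 0.5 h (11.3%), 14 and 8 at 1 h (35.5%), and 20 and 15 at 2 h (56.5%), each near or under the rate over all genes. Of the 11 Nrf2 regulators 7 rose at 1 h and none fell, beside 23.8% of all genes higher and 23% lower. The 11 were listed with earlier results of these data known. Maff, a small MAF partner of NRF2, rose by 2.04, 4.25 and 3.03 at the 3 times, and Sqstm1, which encodes p62, a protein that binds KEAP1, by 0.38, 1.72 and 2.08. Sod2, the mitochondrial superoxide dismutase, rose by 0.55, 2.31 and 3.10. Among those that fell were Txnip, which encodes a thioredoxin-binding protein (-2.23 at 1 h), Sesn1, a sestrin gene (-2.37 at 2 h), and Slc40a1, which encodes the iron exporter ferroportin (-1.30 at 2 h). In Map3k8[D270A] cells 2 of the 62 were higher and 5 lower than in WT at 1 h (11.3%, all genes 9.79%), and 12 and 10 at 2 h (35.5%, all genes 27.7%). Maff differed there by -1.16 and -1.17, Sqstm1 by -0.37 at 1 h, Gsr, glutathione reductase, by -0.48 at 2 h and Sesn1 by 0.57 at 2 h. In Elk1-/-Elk4-/- cells at 0 h 13 were higher and 25 lower (61.3%, all genes 51.8%), among them 7 of the 12 thioredoxin genes lower and 1 higher (all genes, 24.6% lower and 27.2% higher), with Prdx1, a peroxiredoxin, at -0.75 and Blvrb, biliverdin reductase B, at -0.87. Bach2 (0.65), Gpx1 (0.33) and Nqo2 (0.33) were among the higher genes. In Nfkb1[SS/AA] cells at 0 h 24 were higher and 7 lower (50%, all genes 32%). These were 11 and 6 with mutant replicates 1 to 3 alone (all genes 20.1%) and 28 and 4 with replicates 4 to 6 alone (all genes 30.1%). All replicates together had 6 of 6 NADPH supply genes higher, where 16.9% of all genes were. With mutant replicates 1 to 3 alone 2 of these 6 were called higher (10.5% of all genes), and with replicates 4 to 6 alone 6 (16.2%). In DMSO-treated cells 6 were higher and 13 lower than in WT at 0 h (30.6%, all genes 23.6%), Slc40a1 by -0.98 and Gstp1, a glutathione transferase, by -0.85. Tkt and Cybb were higher there, by 0.235 each. At 1 h of LPS with PD 11 were higher and 17 lower (45.2%, all genes 35.7%), Slc40a1 by -1.13 and Gstp1 by -0.74, beside the values of DMSO alone above, and Maff by -0.74. Slc3a2 (0.38) and Tkt (0.29) were higher with PD. Reads of Gstp1 could be shared with its near-identical copy Gstp2, so its values are uncertain. With RSKi47 at 0 h 19 were higher and 16 lower (56.5%, all genes 53%), with 7 of 12 glutathione genes higher and 1 lower, 7 of 12 thioredoxin genes lower and none higher (all genes, 26.8% higher and 26.3% lower), and the aldose reductase gene Akr1b3 at -2.17. Cybb (0.69) and Bach2 (0.60) were among the higher genes. Without RSKi47 replicate 4 the counts turned to 16 higher and 19 lower (all genes 49.6%), with 5 glutathione genes higher and 2 lower, and 7 thioredoxin genes lower and none higher (all genes, 25% and 24.6%).

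Over the 25 group means the 9 genes did not vary as 1 block. Pearson correlations, given as a description since groups share experiments, were 0.88 for Gclm and Gclc and 0.85 for Txnrd1 and Slc7a11. They were 0.85 for Nqo1 and Gclm, 0.83 for Hmox1 and Gclc, and 0.72 for Nfe2l2 and Txnrd1. Keap1 ran against Nfe2l2 (-0.56) and Srxn1 (-0.57), and Nfe2l2 had a correlation of 0.06 with Nqo1 and -0.06 with Hmox1. Of all tested genes, those with the pattern most like each member over the 25 groups by Pearson correlation were Ets2 (0.934) for Nfe2l2, Ints5 (0.927) for Keap1 and Shkbp1 (0.917) for Hmox1. They were Pla2g12a (0.93) for Nqo1, Creg1 (0.96) for Gclm, Chpf2 (0.941) for Gclc, Hist2h2aa1 (0.907, a histone gene with near-identical copies and so uncertain) for Srxn1, Arl5c (0.972) for Txnrd1 and Msantd3 (0.982) for Slc7a11. The catalase gene Cat was among the 3 most alike for both Gclm (0.928) and Gclc (0.92), and Taldo1, transaldolase of the pentose phosphate pathway, for Gclm (0.95).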

How the data were processed

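According to the paper's methods, strand-specific single-end reads were mapped to mm10 with STAR, quantified per RefSeq gene with RSEM and tested with DESeq2 by the authors. The submitters' processing notes name STAR 2.5.1b, RSEM 1.2.29 and DESeq2 1.10.1, and the paper's methods name other versions of STAR and RSEM. The deposited file holds normalized log2-scale levels, 1 per gene and library, from -2.40 to 19.81. A single value above 25 (Fosb, RSKi47 replicate 1 at 1 h) was set to missing. Library medians ran from 7.01 to 7.22, and no 2 libraries were identical.

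Groups came from the labels. Comparisons used limma 3.58.1 (R 4.3.3) with Benjamini-Hochberg adjustment over all tested genes. WT, Map3k8[D270A] and Elk1-/-Elk4-/- cells were fitted together (62 libraries, 11884 genes). The other comparisons used a fit of all 119 libraries (11971 genes). A gene entered the first fit where 4 libraries reached a linear value of 10, and the second where 3 did. The LPS response with PD was taken from PD alone at 40 min for 0.5 h and at 70 min for 1 h. The 9 genes were all named, and of the wider lists up to 3 genes in each direction per comparison, those called with the largest difference and groups that did not overlap, and per member the 3 tested genes of highest correlation over group means, of which 1 or 2 are given. The members and lists were chosen with earlier results of these data known. The fits were tested on simulated data. Same-numbered WT libraries deviated together across times (median correlation 0.48, at least 0.16 over 30 pairs), as did Nfkb1[SS/AA] libraries (0.4, at least 0.14 over 18 pairs). So did those of Map3k8[D270A] (0.42, at least 0.07 over 36 pairs) and RSKi47 (0.32, at least 0.07 over 21 pairs). Medians were lower in Elk1-/-Elk4-/- (0.23) and PD (0.07), where some pairs were negative. Equal numbers did not pair libraries between series, and those of Map3k8[D270A] and WT tended to deviate in opposite directions (median -0.30). Alternatives were the replicate block, leaving out each replicate, no filter, equal medians, a mean-variance trend, 1 fit over all libraries and, added after seeing the data, DMSO as the control and the Nfkb1[SS/AA] replicates in 2 sets, with DMSO as the control and the wider lists also recomputed for each set and without RSKi47 replicate 4. A replicate was left out with all libraries of that number in its series, so at every time together.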

Additional observations from a re-analysis of the deposited data

Results flagged for a closer look

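Of 180 groups of 4 to 10 libraries examined for the 9 genes, 12 (6.67%) held a library set apart from the rest by Dixon's criterion, which chance gives in about 1 of 20 groups. RSKi47 replicate 4 accounted for 9 of them: Keap1 was lowest there at 2 h (10.28), and it was highest for Gclm at 0, 1 and 2 h (10.76, 10.71 and 10.56), Gclc at 0 h (9.83), Srxn1 at 0 h (12.33), Txnrd1 at 0 and 2 h (12.86 and 14.06) and Slc7a11 at 1 h (10.08). WT replicate 9 accounted for the other 3, as the highest library of Gclc at 0 and 1 h (9.76 and 9.81) and of Txnrd1 at 0.5 h (12.66).

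A further 16 values are differences between series in the response to LPS, tested as interactions in limma and called at an adjusted p below 0.05. The response in Map3k8[D270A] cells differed from that in WT at 1 h for Srxn1 (-0.40) and Txnrd1 (-0.40), and at 2 h for Keap1 (0.43), Srxn1 (-0.56), Txnrd1 (-0.46) and Slc7a11 (-0.74). In Elk1-/-Elk4-/- cells it differed at 1 h for Srxn1 (-0.37) and at 2 h for Keap1 (0.38), Srxn1 (-0.48) and Slc7a11 (-0.98). In Nfkb1[SS/AA] cells it differed at 1 h for Txnrd1 (-0.36). With RSKi47 it differed at 1 h for Txnrd1 (-0.53) and at 2 h for Nfe2l2 (0.23), Gclc (0.29), Srxn1 (-0.31) and Txnrd1 (-0.40).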

How the results depend on the processing

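Of 5139 values recomputed for the 9 genes, 4881 kept direction and side of the threshold, 189 lost a call, 62 gained one and 7 reversed. A mean-variance trend changed none of its 333. Without the filter on low values 7 of 333 lost a call at the same difference: Slc7a11 in the Map3k8[D270A] and Srxn1 in the RSKi47 interaction at 2 h, Nfe2l2 in Elk1-/-Elk4-/- and with PD at 1 h, Nqo1 with RSKi47 at 1 h, and Hmox1 in Nfkb1[SS/AA] at 0 and 0.5 h. The reversed values were Slc7a11 in Map3k8[D270A] against WT at 0 h (-0.35) and Nfe2l2 in Nfkb1[SS/AA] against WT at 0 h (-0.11) with the replicate number as a block, Gclm with RSKi47 at 0 and 1 h without replicate 4 (-0.25 and -0.28, the lowest of values that reached 0.15 without other replicates), Nqo1 in Nfkb1[SS/AA] at 0 h with replicates 1 to 3 only (-0.06) and Srxn1 with RSKi47 at 0 h against DMSO (0.16, and 0.01 without replicate 4). The cause was not tested. Of 115 called values, 82 stayed called whichever replicate was left out at all times of its series. Leaving out single replicates took the count of calls from 16 to between 6 and 17 for Nfkb1[SS/AA] against WT, from 2 to between 0 and 2 for PD without LPS (0 without PD replicate 1 or 2, 1 without 3), and from 5 to between 2 and 4 for the RSKi47 interaction (3 without WT replicate 5 or 6 or RSKi47 replicate 1 or 2, 2 without RSKi47 replicate 3).

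The block on replicate numbers, which do not pair Map3k8[D270A] with WT libraries, gave 22 calls in place of 7 there. A block on number within each series took interaction calls from 6 to 9 in Map3k8[D270A] (adding Hmox1 at 1 and 2 h, -0.15 and -0.17, and Nfe2l2 at 2 h, -0.19) and from 4 to 6 in Elk1-/-Elk4-/- (Slc7a11 at 1 h, -0.64, and Txnrd1 at 2 h, -0.20). It took them from 0 to 3 with PD (Hmox1, Srxn1 and Txnrd1 at 1 h, -0.14, -0.27 and -0.21) and from 5 to 7 with RSKi47 (Srxn1 and Slc7a11 at 1 h, -0.23 and -0.43). In WT with LPS it added Gclm at 2 h (-0.17), and no other call changed. The block across series could not be fitted for Elk1-/-Elk4-/-, RSKi47 or DMSO against WT, which share fewer than 2 numbers. Among WT replicates 7 to 9 and Map3k8[D270A] replicates 4 to 6, calls fell from 7 to 2 and those of the interaction from 6 to 1, with 1 WT library at 2 h. Equal medians left 3 of 5 RSKi47 interaction calls, without Nfe2l2 (0.21) and Gclc (0.27) at 2 h, and lost Nfe2l2 in Elk1-/-Elk4-/- (0.15) and with PD (-0.12) at 1 h and Hmox1 in Nfkb1[SS/AA] at 0 h (0.27). Nfkb1[SS/AA] replicates 1 to 3 gave 2 of 16 calls, where 20.1% of all genes were called at 0 h beside 32% with all replicates. The fit over all libraries lost the Elk1-/-Elk4-/- calls of Nqo1 at all 4 times and of Hmox1 at 0 and 0.5 h (-0.21 and -0.26), and the interaction calls of Slc7a11 in Map3k8[D270A] at 2 h (-0.74) and Srxn1 in Elk1-/-Elk4-/- at 1 h (-0.37). It added that of Nfe2l2 in Map3k8[D270A] at 2 h (-0.24). A pseudocount was not tried, since the values are already on a log scale, and depth is unknown.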
